A study of Mus musculus with 13 samples.

Results

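Small RNA reads of 34 to 48 nt were examined in male germ cells of C57BL6/J mice aged 3 to 4 weeks, sorted by Hoechst-33342 fluorescence. The members are all distinct sequences of this length in the deposited sequence lists, without regard to their counts. There were 1659684 of them among 18788483 distinct sequences of all lengths, and 10835345 sequences of 24-33 nt served for comparison. The 9 samples, from 13 libraries, ran from spermatogonia (SG) through spermatocytes in leptotene/zygotene (L/Z) and in pachytene/diplotene (PD) to spermatids of the round stage (RS), 4 stages in all. The single-library set held 1 sample of SG, 2 of L/Z (LZ), 1 of PD and 1 of RS, each from a 50-bp run. The technical-replicate set held 2 samples of SG (SG_T) and 2 of L/Z (LZ_T), each sequenced in a 50-bp and a 100-bp run whose counts were summed. No label gave a genotype. The tables deposited with the single-library set were tagged as wild type, and the table headers of the technical-replicate set named a knockout of Pld6, which encodes the mitochondrial nuclease PLD6. Genotype, run and depth therefore cannot be told apart between the sets. The sorted cell types were not checked against a marker list. Among the protein-coding genes with most long reads, looked at after their values were seen, were Sycp1, which encodes a protein of the synaptonemal complex of meiosis, and Dazl, which encodes a germ-cell RNA-binding protein. In RPM, the count scaled to the library total, Sycp1 had 2.18 for SG, 10.98 and 4.24 in the LZ pair, next to 0.752 in PD and 0.239 in RS. Dazl had 1.58 RPM in SG, 4.54 and 2.29 in the LZ pair and no read in PD or RS. In the technical-replicate set the stages overlapped for both genes. Sycp1 had 5.93 and 2.21 RPM in SG_T against 4.34 and 1.02 in LZ_T. Dazl had 6.61 and 1.104 RPM in SG_T against 5.62 and 1.39 in LZ_T. SG, PD and RS had no replicate, and their values are given without a test. Total reads per sample ranged from 1810805 (SG_T replicate 2) to 29956080 (LZ replicate 1), and 34-48 nt reads from 180495 to 2263536.

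PIWI-interacting RNAs (piRNAs) guide PIWI proteins to retrotransposon transcripts in germ cells. A long single-stranded precursor is cut into pieces, in which PLD6 (Zucchini in flies) takes part, and the 3′ end of each piece is then trimmed back to the length that the PIWI protein covers. Most mature piRNAs start with U, written as T in the sequence lists. Reads somewhat longer than a piRNA can therefore be untrimmed intermediates, or fragments of ribosomal, small nucleolar and other abundant RNAs.

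The sequences below are shown because they led the read lists or separated the libraries most. Capitals mark the first 24 bases, the stretch that was compared with 24-33 nt reads. Places are given in GRCm38.p6 and come from an exact match to an annotated transcript, and all of these sequences match the sense strand.
S1: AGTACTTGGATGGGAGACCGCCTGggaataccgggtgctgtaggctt
S3: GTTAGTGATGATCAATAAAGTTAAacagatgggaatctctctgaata
S8: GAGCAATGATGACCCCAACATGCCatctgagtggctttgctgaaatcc
S9: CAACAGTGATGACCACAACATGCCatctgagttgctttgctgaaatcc
S10: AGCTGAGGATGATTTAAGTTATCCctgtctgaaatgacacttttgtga
S11: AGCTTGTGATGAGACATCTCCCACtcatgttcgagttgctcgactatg

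S1, of 47 nt, lay at chr4:53860725-53860771 (plus strand) in an exon of a Tmem38b transcript annotated as protein-coding. All but its last base fell in the RefSeq 5S ribosomal RNA gene LOC115490001. 5S genes have near-identical copies, so its reads cannot be assigned to this copy. The other 5 sequences came from small nucleolar RNAs (snoRNAs), which guide the modification of other RNAs. S3, of 47 nt, lay at chr1:161037360-161037406 (plus strand) in the snoRNA gene listed as Mir5117, inside the span of the lncRNA gene Gas5. S8 and S9, each of 48 nt, lay on the plus strand inside the span of Rack1, S8 in Gm25296 at chr11:48800866-48800913 and S9 in Snord95 at chr11:48803140-48803187. S10, of 48 nt, lay at chr11:56263190-56263237 (minus strand) in Gm24253. S11, also of 48 nt, lay at chr7:45126898-45126945 (minus strand) in Snord33, inside the span of Rpl13a, which encodes a ribosomal protein.

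Most members were rare. Of the 1659684 sequences, 86.4% were read in 1 sample only, 3858 occurred in all 9 samples and 26136 had at least 20 reads in total. The 34-48 nt class made up 8.41% of all reads in SG, 7.56% and 8.94% in the LZ replicates, 2.41% in PD and 1.93% in RS. In the technical-replicate set it made up 19.1% and 9.97% in SG_T and 13.2% and 7.35% in LZ_T. The class was thus smallest in PD and RS, and the replicates within SG_T and within LZ_T lay far apart. LZ_T and SG_T differed by -4.25 percentage points (exact permutation test, two-sided, p = 0.667, n = 2 and 2), and LZ_T and LZ by 2.04 (p = 1). The lowest p an exact permutation test of 2 against 2 samples allows is 0.33.

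Set against the piRNA-sized reads of the same sample, the order of the groups was sharper. For every 100 reads of 24-33 nt there were 28.2 long reads in SG, 16.7 and 22.7 in the LZ pair, next to 2.86 in PD and 2.33 in RS. SG_T held 83.3 and 67.4, and LZ_T held 56.3 and 44.0. Both groups of the technical-replicate set lay above all 5 samples of the single-library set. In these 4 samples 24-33 nt reads were 14.8% to 23.5% of all reads, against 29.8% to 84.5% in the single-library set. Their long reads were 7.35% to 19.1% of all reads, against 1.93% to 8.94% there, and these ranges overlapped. The ratio thus moved with its denominator and, in part, with its numerator.

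The length profile separated PD and RS from the earlier stages. Reads of 34-36 nt held 47.01% of the class in PD and 34.4% in RS, against 21.1% in SG, 23.8% and 19.7% in LZ and 24.2% to 26.5% in the technical-replicate set. The single length of 34 nt alone held 23.6% in PD and 16.4% in RS, against 6.78% to 9.12% in the other samples. The opposite end of the window was filled in SG and LZ: the 47-48 nt share was 22.2% in SG, 12.7% and 21.1% in LZ, 7.90% in PD, 12.2% in RS and 6.82% to 9.45% in SG_T and LZ_T. The mean length was 41.4 nt in SG, 40.0 and 41.3 nt in LZ, 38.5 nt in PD and 39.8 nt in RS. It was 40.0 and 39.7 nt in SG_T and 39.9 and 39.8 nt in LZ_T. LZ_T and LZ differed by -0.775 nt without overlap (exact permutation test, two-sided, p = 0.33, n = 2 and 2), and LZ_T and SG_T overlapped (difference -0.0139 nt, p = 1). Restricted to 34-45 nt, LZ_T lay above LZ by 0.0989 nt.

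Long reads started with T most often in PD and RS. The share was 65.2% in PD and 45.6% in RS, against 29.4% in SG and 31.5% and 28.9% in LZ. At 34 nt it reached 80.2% in PD and 71.1% in RS and fell to 53.8% and 31.6% at 38 nt. SG_T had 23.4% and 23.8% and LZ_T 25.6% and 28.2%. LZ_T lay above SG_T by 3.27 percentage points and below LZ by 3.32, each without overlap between the groups (exact permutation test, two-sided, p = 0.33, n = 2 and 2). For 24-33 nt reads the T share was 86.6% in PD and 86.9% in RS, 65.8% to 74.8% in SG and LZ, and 31.5% to 42.3% in SG_T and LZ_T.

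Part of the T share moved with base substitutions in the reads. Over the 200 most read members with an exact transcript match, a G at base 1 was read as T in 14.7% to 16.8% of reads in the single-library set and in 0.763% to 1.04% in the technical-replicate set. Subtracting these reads gave T shares of 63.8% in PD, 43.8% in RS, 26.8% in SG, 28.9% and 26.4% in LZ, 23.3% and 23.5% in SG_T and 25.4% and 28.0% in LZ_T. PD and RS still lay above every other sample, whereas LZ and LZ_T then overlapped.

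To ask whether long reads start where piRNA-sized reads start, the first 24 nt of each long read were looked up among the 24-33 nt reads of the same sample. A match was found for 80.8% of long reads in SG, 83.3% and 86.1% in the LZ pair, next to 79.5% in PD and 71.1% in RS. SG_T had 84.8% and 70.9%, and LZ_T had 82.8% and 81.9%. LZ_T lay below LZ by 2.36 percentage points without overlap (exact permutation test, two-sided, p = 0.33, n = 2 and 2), and LZ_T and SG_T overlapped (difference 4.51, p = 1). At equal depth LZ_T lay above LZ by 7.16 percentage points. These shares are read against the same lookup made inside the long read, with 24-nt windows starting at bases 2 to 11. Averaged over these windows the share was 69.4% in SG, 77.2% and 78.4% in LZ, 44.6% in PD, 47.5% in RS and 69.3% to 78.3% in the technical-replicate set. The shared start stood out from the inner windows mainly in PD and RS, where the gap was widest.

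The match depends on how many short reads there are to match, so 180495 long and 267971 short reads were drawn from every sample. In PD, 61.0% of the long reads starting with T then shared their start, against 26.3% of those starting with another base and 15.1% in the inner windows. In RS these values were 50.2%, 34.5% and 19.4%. In SG the order was the opposite, with 56.5% for T and 64.4% for other bases, as it was in LZ (57.2% and 63.7%, 57.4% and 70.4%). SG_T (57.0% and 79.1%, 57.4% and 75.1%) and LZ_T replicate 1 (57.7% and 75.4%) had the same order as SG. LZ_T replicate 2 had 72.7% for T and 71.4% for other bases. At equal depth an excess of shared starts among reads that start with T was thus widest in PD, then in RS. The order depended on the counting. Over all reads of RS the shares were close, at 72.2% for T and 70.2% for other bases, against 84.9% and 69.5% in PD. Over distinct sequences T-starting members lay above the others in PD (79.8% and 51.3%) and RS (65.7% and 39.7%), and also in SG (49.5% and 44.9%) and both LZ samples (58.3% and 42.4%, 58.8% and 49.3%), which turns the order of SG and LZ.

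Where a T-starting long read without a noncoding RNA match held a whole 24-33 nt sequence as its start, the base that followed that sequence was recorded. Among 93071 such sequences in PD, T took 31.9% of the position after the short 3′ end and 39.5% of the fourth position after it. In RS, with 31424 sequences, T rose from 32.5% to 36.8% over the same positions. In SG and LZ, T took 22.6% to 25.4% of the position after the end and 28.2% to 30.1% of the fourth position. Counted over distinct sequences, T was thus more frequent in PD and RS than in SG and LZ at both positions. The same order was seen at the last base of the short sequence itself. There T took 30.2% in PD and 29.7% in RS, against 20.6% in SG and 26.6% and 25.2% in LZ. The excess was thus not confined to the bases after the end. Weighted by reads, the higher T share of PD and RS held at the position after the end. At that position PD had 30.97% T and RS 34.4%, while SG had 13.14% and the LZ pair 16.93% and 12.64%. At the fourth position it held against LZ but not against SG. T there took 46.98% for SG, 32.97% and 34.3% for LZ, next to 36.2% in PD and 38.9% in RS.

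The origin of the reads was looked up by exact match to annotated transcripts. Many long reads carried changed 3′ ends, so matches that ignored the last 3 bases are given. The ribosomal RNA share of long reads was 21.7% for SG, 28.7% and 29.6% for LZ, 7.74% for PD, 14.8% for RS and 13.8% to 22.1% in the technical-replicate set. The snoRNAs held 16.2% in SG, 12.6% and 14.8% in LZ, 3.42% in PD, 5.10% in RS and 5.88% to 8.79% in the technical-replicate set. Small nuclear RNAs (snRNAs), the RNA parts of the spliceosome, held 2.17% in SG, 2.43% and 3.47% in LZ, 1.34% in PD, 5.46% in RS and 3.68% to 7.63% in the technical-replicate set. Fragments of abundant RNAs thus made up a smaller part of the class in PD than in any other sample, and reads without a match the largest, at 75.8%. In the other samples 45.1% to 64.3% had no match. The reference used here held no nuclear tRNA, so tRNA fragments are among the unmatched reads.

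The 5S fragment S1 was the most read member in SG (2597 RPM) and LZ replicate 2 (3792 RPM) and the second in LZ replicate 1 (1425 RPM). It had 187 RPM in PD, 250 in RS, 579 and 213 in SG_T and 331 and 187 in LZ_T. Both LZ values lay above both LZ_T values. The quasi-likelihood test of edgeR gave a log2 fold change of -3.33 ± 0.542 (SE, derived from its F statistic). The Benjamini-Hochberg adjusted p was 6.21e-08. Sequences that share its first or last 20 bases behaved less unevenly. Together they held 14318 and 18771 RPM in LZ and 7050 and 7248 RPM in LZ_T, so the fall of the exact 47-nt sequence was larger than that of its family.

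The snoRNA member S3 showed the same split. It had 1463 RPM in SG, 151 and 986 in the LZ pair, next to 23.4 in PD and 41.6 in RS, against 36.7 and 0 in SG_T and 14.9 and 1.95 in LZ_T (log2 fold change LZ_T against LZ -6.09 ± 0.745, edgeR adjusted p = 3.15e-13). The 48-nt snoRNA reads S8 to S11 had no read in either LZ_T sample. S8 had 791 RPM in SG, 209 and 671 in the LZ pair, next to 31.2 in PD and 34.8 in RS, and no read in SG_T. S9 had 411 RPM in SG, 131 and 265 in the LZ pair, next to 25.8 in PD and 35.6 in RS, and S10 had 145 RPM in SG and 17.7 and 77.6 in LZ. S11 had 133 RPM in SG and 14.3 and 76.2 in LZ, and 2 reads in SG_T replicate 1. In the edgeR test of LZ_T against LZ the adjusted p was 2.43e-27 for S8, 8.12e-21 for S9, 8.75e-13 for S10 and 1.44e-12 for S11. S8 to S11 were named for their large falls and do not stand for all snoRNA members. Of 3235 snoRNA members in this test, 8.53% were called higher and 7.64% lower in LZ_T. Among all members these shares were 22.5% and 16.9%.

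These 47- and 48-nt snoRNA reads had a common 3′ neighbourhood. In the transcripts, the bases after a 48-nt snoRNA read were AG for 92.3% of such reads in SG, 70.8% and 86.8% in the LZ pair, next to 85.3% in PD and 88.5% in RS, against 3.20% to 4.98% in the technical-replicate set. The bases after a 47-nt read were AGA for 85.7% in SG, 44.9% and 77.6% in the LZ pair, next to 63.7% in PD and 73.9% in RS, against 0.800% to 11.4%. For snoRNA reads of 34-46 nt, AG followed 6.55% to 10.6% in all 9 samples. The sets thus had similar shares at 34-46 nt and separate ones at the end of the window. The snoRNA reads of 34-46 nt amounted to 6721 RPM in SG, 6857 and 7649 in LZ, 8862 and 4144 in SG_T and 8495 and 4566 in LZ_T, so these groups overlapped. At 47-48 nt they amounted to 5903 RPM in SG and 1911 and 4429 in LZ, but 1340 and 528 in SG_T and 978 and 495 in LZ_T. The adapter trimmed by the authors is not given in the sources used here, and the part of trimming in the 47-48 nt reads was not tested.

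Among the most read T-starting members of PD and RS that shared their start with a short read and matched no noncoding RNA, 4 sequences of 34-36 nt were highest in these stages. They were chosen by their reads in PD and RS, so their high values there follow in part from the choice. The first, of 35 nt, had 137 RPM in PD, 59.0 in RS, 12.6 and 6.47 in LZ and 0.903 in SG. In the technical-replicate set it had 2 reads in SG_T replicate 1 and none in the other 3 samples. The second, of 36 nt, was highest in RS (150 RPM), with 73.4 in PD, 5.57 and 4.93 in LZ and 0.828 in SG. The third, of 34 nt, had 66.7 RPM in PD and 34.2 in RS, 8.91 and 4.18 in LZ and 0.452 in SG, and no read in the technical-replicate set. The fourth, of 36 nt, had 20.4 RPM in PD and 35.6 in RS, and matched Gm10619, annotated as a lincRNA, when its last 3 bases were ignored. All reads matching Gm10619 in the class amounted to 142 RPM in PD and 96.6 in RS, 20.9 and 15.1 in LZ, 0.903 in SG and at most 0.0929 in the technical-replicate set. The first 3 matched no transcript. All 4 were lower in LZ_T than in LZ (edgeR adjusted p from 1.38e-07 to 0.000565), and the call of the fourth was lost with technical replicate 1 only (adjusted p = 0.077). For comparison, edgeR called 16.9% of all members and 49.1% of sequences of any length lower in LZ_T. Among T-starting members without a noncoding match the share was 32.9%.

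The most read members of the technical-replicate set matched no transcript of the reference. A 36-nt sequence led SG_T replicate 1 with 6056 RPM and had 1222 RPM in SG_T replicate 2, 2416 and 842 in LZ_T, 771 and 697 in LZ, 817 in SG, 71.7 in PD and 155 in RS. A 44-nt sequence had 4342 and 2068 RPM in SG_T, 2210 and 3071 in LZ_T, 661 and 1483 in LZ, 2040 in SG, 178 in PD and 470 in RS. Both passed the edgeR test as higher in LZ_T than in LZ (adjusted p = 0.039 and 0.0154), and neither passed with the trimmed mean of M-values (TMM) scaling (adjusted p = 0.52 and 0.235). The edgeR call of the 36-nt sequence was also lost without LZ_T replicate 1 (adjusted p = 0.818), LZ replicate 1 (0.135) or LZ replicate 2 (0.13), and that of the 44-nt sequence without LZ_T replicate 2 (0.141) or LZ replicate 1 (0.291).

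The authors' retrotransposon tables give long reads on a scale of RPM mapped to consensus sequences, with technical replicates averaged. Sequences of L1, the autonomous LINE family of mice, gave 371 RPM of long reads for SG, 153 and 470 for LZ, 107 in PD, 97.2 in RS, 201 and 120 in SG_T and 221 and 83.3 in LZ_T. The LZ and LZ_T values overlapped (difference -159 RPM, exact permutation test, two-sided, p = 0.667, n = 2 and 2). The short L1 reads did not: they amounted to 4329 and 10400 RPM in LZ and 481 and 397 RPM in LZ_T. The ratio of long to 100 short L1 reads was accordingly 3.53 and 4.52 in LZ, 45.9 and 21.0 in LZ_T, 59.3 and 39.9 in SG_T, 3.27 in SG, 6.30 in PD and 11.8 in RS (exact permutation test of LZ_T against LZ, p = 0.33). The ratio thus moved with the short reads, while the long reads overlapped.

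The other families did not move together. For IAP, an endogenous retrovirus, LZ_T held 237 and 166 RPM of long reads, SG_T 46.3 and 18.4, LZ 218 and 555 and SG 373. The ratio per 100 short reads was 5.82 and 5.59 in LZ_T and 2.63 and 3.98 in LZ. For B1, a SINE, the ratio went the other way, with 1.86 and 1.17 in LZ_T against 6.005 and 5.05 in LZ and 4.57 and 4.63 in SG_T. Long B1 reads themselves were higher in LZ_T, at 300 and 214 RPM against 157 and 193 in LZ. Short B1 reads amounted to 16089 and 18223 RPM in LZ_T and 2607 and 3813 in LZ. For B2, also a SINE, the ratio was 14.4 and 10.1 in LZ_T, 7.13 and 6.02 in LZ and 32.3 and 39.1 in SG_T. In each of these ratios LZ_T and LZ did not overlap (exact permutation test, p = 0.33). The strand of the long reads in PD and RS differed between families. For L1, 83.8% and 86.6% were sense, against 32.6% and 44.3% of short L1 reads. For IAP, 48.9% of long reads were sense in PD and 88.3% in RS, against 9.96% and 12.5% of short reads. Long reads of the SINEs were mostly antisense, with a sense share of 29.3% and 34.5% for B1 and 24.9% and 18.2% for B2. So were their short reads, with a sense share of 24.9% and 33.8% for B1 and 13.02% and 11.09% for B2. The long-read values of RS rest on 4.4 RPM for B1 and 7.9 RPM for B2. Long B1 reads were also mostly antisense in SG (30.3% sense) and LZ (39.5% and 39.6%). Long B2 reads were mostly sense there, with 79.3% in SG and 83.8% and 74.97% in LZ.

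Few individual members passed a test between L/Z and SG of the technical-replicate set. Of 12419 members tested, those with at least 20 reads over the 4 samples, 28 were called at an adjusted p under 0.05 by edgeR, 5 higher and 23 lower in LZ_T. DESeq2 called 8 and turned the split, with 6 higher and 2 lower. Over all 86795 sequences of any length, 0.909% were called (0.767% higher, 0.142% lower), and 631 members had an unadjusted p under 0.05. The share of members called, 0.225%, was thus below the share over all sequences. By direction, 0.0403% of members were called higher, below 0.767%, and 0.185% were called lower, above 0.142%. A single member met the naming rule, a 36-nt T-starting sequence without a match. It had 0.809 and 4.42 RPM in SG_T and 55.9 and 53.3 in LZ_T, and 3.39 in SG, 0.3 and 1.03 in the LZ pair, next to 0 in PD and 0 in RS. Both LZ_T values lay above all others (log2 fold change against SG_T 4.59 ± 0.95 (SE), adjusted p = 0.00168), and the call was lost without LZ_T replicate 1 (adjusted p = 0.0821), LZ_T replicate 2 (0.102) or SG_T replicate 1 (0.146).

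Between LZ_T and LZ, 6469 of 16454 members were called, 3696 higher (22.5%) and 2773 lower (16.9%) in LZ_T. Over all 215787 sequences 65.4% were called, 16.4% higher and 49.1% lower. The 24-33 nt sequences were mainly lower, with 84573 of 112259 (75.3%). The difference between long and short sequences was not tested. DESeq2 called 3187 higher and 1091 lower. Without LZ_T replicate 1 the edgeR split turned to 1250 higher and 2294 lower. TMM moved it to 2370 higher and 3891 lower, and the median log2 fold change of all sequences from -2.32 to -2.99. Members of 47-48 nt were lower in 36.7% of cases, against 14.4% at 34-36 nt and 14.2% at 37-46 nt. T-starting members without a noncoding match were lower in 32.9%. snRNA members were higher in 36.7% and lower in 6.05%. Reads of the snRNA gene Rnu1b1, which encodes a U1 RNA, amounted to 140 and 486 RPM in LZ, 330 in SG, 1653 and 872 in LZ_T and 2643 and 441 in SG_T.

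Substituted reads entered these calls. Of the 3696 members higher in LZ_T, 1134 (30.7%) differed by 1 base from a sequence read at least 10 times as often in the same group, and 700 (18.9%) by a G read as T. Of the 2773 members lower in LZ_T, 1324 (47.7%) differed by 1 base from such a sequence, and 6.02% by a G read as T. Among members not called these shares were 22.9% and 1.88%. The share of 1-base neighbours was thus larger among the lower members, and the share of G read as T among the higher. In the 100-bp run, reads with T in place of G numbered 7.52 to 9.94 per 100 reads with G at base 5, counted from the 5′ end. At base 9 they numbered 6.91 to 7.51, against at most 0.0506 in the single-library set. The members called higher with the largest fold change included 2 such sequences, each with the substitution G5T relative to a more read sequence. The first had 48.7 and 22.6 RPM in LZ_T, 78.0 and 14.9 in SG_T and none in LZ. The second had 56.1 and 56.7 RPM in LZ_T, 72.4 and 90.0 in SG_T, and 0.2 and 0 in LZ. Without the neighbours that met the cutoff, 4011 members remained called.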

How the data were processed

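Small RNA libraries from sorted germ cells (TruSeq Small RNA kit) were read as deposited. The authors trimmed adapters with cutadapt (version not given in the sources used here) and deposited, for each of 13 libraries, a list of distinct sequences with raw read counts. The authors also deposited tables of RPM per retrotransposon consensus sequence, made after removing rRNA, tRNA and miRNA reads, by SeqMap with up to 2 mismatches, with reads of several hits divided; whole reads were not recovered from them. The sequence lists still hold rRNA. Counts of technical replicates were summed, giving 9 samples, and RPM values of technical replicates were averaged. Samples were grouped by the stage and replicate type in their titles.

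Members of 34-48 nt were taken from every list. The SG list ends in 1 line without a count, which was left out. Exact matches were sought in GENCODE vM21 transcripts and RefSeq names (GRCm38.p6). Differences between 2 groups of 2 samples were tested by the two-sided exact permutation test, and counts of all sequences with at least 20 reads in total by edgeR 4.0.16 (quasi-likelihood, library totals as offsets, Benjamini-Hochberg) in R 4.3.3, with DESeq2 1.42.0 and other settings as alternatives. The SE given with an edgeR fold change is its absolute log2 value divided by the square root of the test's F statistic. The fit was also run on simulated counts with a fixed spread and no shift between replicates. That run cannot show how many calls in these data are false. Labels do not say whether replicates are separate animals, so p-values may measure technical spread. The members and lists were chosen with earlier results of these data known. Retrotransposon, substitution and neighbouring-base measures, and the match without the last 3 bases, were added after seeing the data.

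The named sequences were, by rule, the 3 most read members of each group, the 5 called members with the largest fold change per comparison and direction among those with a mean of at least 10 RPM and no overlap, and the 3 most read T-starting members of SG, LZ, PD and RS that share their start and match no noncoding RNA. Sequences with the same first or last 20 bases were counted once.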

Additional observations from a re-analysis of the deposited data

Results flagged for a closer look

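The lists of the technical-replicate set also held reads of 49 nt, 1 base above the window examined, and the lists of the single-library set held none. These reads amounted to 6682 RPM in SG_T replicate 1, 2710 in SG_T replicate 2, 4621 in LZ_T replicate 1 and 1764 in LZ_T replicate 2. They were singled out as signal outside the main measurement. Their absence from the single-library lists, whose longest read is 48 nt, was not tested further.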

How the results depend on the processing

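The T share differences kept their direction under all alternatives tried. The 34-48 nt share difference kept its direction except without SG_T replicate 1 (LZ_T minus SG_T, range -8.82 to 0.315 over the left-out replicates) and without LZ_T replicate 1 (LZ_T minus LZ, range -0.893 to 4.96). The mean length difference of LZ_T and SG_T turned at 34-45 nt (0.0456 nt), with technical replicate 1 (0.141) or 2 only (0.0281) and over left-out replicates (-0.162 to 0.135). That of LZ_T and LZ turned over distinct sequences (0.441) and at 34-45 nt (0.0989). The shared start difference turned at equal depth for LZ_T minus SG_T (-1.09) and over left-out replicates (-2.45 to 11.5), and for LZ_T minus LZ over distinct sequences (0.163) and at equal depth (7.16). The long L1 difference of LZ_T and SG_T turned with technical replicate 1 only (13.2 RPM) and over left-out replicates (-77.4 to 60.1). The cause was not tested.

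Members called in LZ_T against SG_T numbered 28, and 31 with TMM, but 8 with DESeq2 (6 higher), 16 at a minimum of 5 reads, 4 at 100 reads, 3 with technical replicate 1 only and 0 to 20 over left-out replicates. Against LZ they numbered 4278 with DESeq2, 11918 at a minimum of 5 reads, 1524 at 100 reads, 1281 with technical replicate 1 only, 3281 to 4211 over left-out replicates (lowest without LZ_T replicate 2) and 4011 without 1-base neighbours. Stricter minimums test fewer sequences.

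Samples share only a replicate number. With the replicate number as a block, 156 members were called against SG_T (41 higher) and 6280 against LZ. The block does not move the mean differences in the 4 read measures (-4.25 for the share against SG_T). Their sign-flip test over 2 within-replicate differences stayed above the threshold. It allows no p below 0.5, so it cannot decide. The deviations of same-numbered samples correlated at 0.292 (SG_T) and 0.0281 (LZ). Depth limits the members of SG_T replicate 2 most.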
